A study of Mus musculus with 20 samples.

Results

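Secreted growth factors are the signals by which an epithelium addresses itself and the tissue below it. The 10 genes described here, Fgf9, Fgf2, Kitl, Pdgfa, Vegfa, Hgf, Wnt5a, Bmp4, Fst and Ctgf, encode secreted ligands or modulators of several such pathways. They were chosen by name, with earlier results of these data known. They were followed in ovarian surface epithelial (OSE) cells, the single layer that covers the ovary. Of these 10 genes, 9 have a row among the 14299 genes with counts, and Hgf was not analysed here. Ctgf is annotated under its newer symbol, Ccn2.

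Primary cultures of mouse OSE, after 48 hours without hormones, received 100 nM estradiol (E2) over 15 days, and control cultures received the vehicle, ethanol at 0.0002%. Single cells were captured on a microfluidic chip on which each of 20 columns gave 1 cDNA library, 10 of control and 10 of E2-treated cells, and the cells of E2 column 13 were not analysed here. A condition entered the chip as 1 suspension, and no source says that columns came from separate cultures, so that the p-values below measure the spread between libraries of 1 suspension. The deposited cluster labels divide the 589 cells into 421 responsive cells (203 control, 218 E2-treated), named so by the study for their response to E2, and 168 cells of cluster 1 (126 control, 42 E2-treated).

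As background, FGF9 signals through FGF receptors and is known from the developing gonad. KIT ligand, the product of Kitl, binds the receptor KIT on oocytes and on theca precursors. BMP4 and WNT5A pattern many epithelia, follistatin binds activins and BMPs, and VEGFA is the main growth factor of blood vessels. CTGF is a matricellular protein whose gene is a classical target of YAP and TGF-beta.

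Levels are given as CPM, the summed counts of 1 library and 1 cluster scaled to their TMM-normalized total, for sums of at least 3 cells. E2 and control libraries were compared with edgeR's quasi-likelihood test across all genes, and a gene was called where its Benjamini-Hochberg adjusted p was below 0.05 and its log2 fold change exceeded 0.5 in size. Responsive cells gave sums for 10 control and 9 E2 libraries, of 2136904 to 3904027 reads, and cluster 1 gave sums for 10 control and 7 E2 libraries. Median reads per cell were 143453 in control and 117918 in E2-treated responsive cells, and 112314 and 87702 in cluster 1. The 11 of 12 OSE markers with counts, such as Krt7 and Upk3b, summed to between 4296 and 7052 CPM in every library and cluster. Single OSE markers differed between the clusters in both directions. Krt19 averaged 406 and 624 CPM in control and E2-treated responsive cells, and 26.1 and 21.1 CPM in cluster 1. Msln averaged 41.0 and 20.8 CPM in responsive cells, and 340 and 245 CPM in cluster 1. The 7 of 8 fibroblast markers with counts summed to 1695 to 4654 CPM in responsive cells and to 2703 to 10553 CPM in cluster 1. Among them, Col1a2 averaged 14.6 CPM in control and 10.2 CPM in E2-treated responsive cells, and 1896 and 1965 CPM in cluster 1, and Mmp2 was also higher there. Dcn was abundant in both clusters, at 1238 ± 116 and 1329 ± 490 CPM (SD) in control and E2-treated responsive cells. In cluster 1 it was at 1411 ± 303 and 2229 ± 2170 CPM (SD). Col3a1 went the other way from Col1a2, with 557 and 734 CPM in responsive cells and 274 and 250.4 CPM in cluster 1. So did Col1a1 and Thy1, and Pdgfra averaged 3.69 to 8.36 CPM in the 4 groups. The other marker lists summed, in responsive cells and in cluster 1, to 4.01 to 50.1 and 0 to 191 CPM for granulosa cells (1 of 6 with counts), 15.3 to 137 and 74.4 to 597 CPM for theca cells (3 of 5), 444 to 754 and 312 to 663 CPM for endothelium (2 of 5), 20.7 to 138 and 0 to 110 CPM for leukocytes (3 of 5), and 0 to 28.5 and 0 to 180 CPM for muscle cells and pericytes (3 of 6). Their part in the results was not tested. E2 library 15 stood apart for several of the genes below. Levels of Fgf9, Kitl and Wnt5a in responsive cells, and shares of cells with Kitl and Fgf9, are given with and without it. Levels over all cells, levels by trajectory state, pairs of genes and reads within cells include it. Row positions on the chip serve as cell barcodes within a column, and each of the 40 positions recurs in 10 to 19 libraries.

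In responsive cells, 2 of the 7 growth factor genes that could be fitted rose with E2, Fgf9 and Kitl, where 87 of all 10265 genes (0.848%) were called higher, 54 (0.526%) lower and 141 (1.37%) in either direction. The growth factor genes were chosen with earlier results of these data known, so their count beside these shares does not measure enrichment. The promoters of Fgf9 and Kitl are shown because both genes moved in the same direction. The RefSeq promoter window of Fgf9 begins at chr14:58072436 on the plus strand of GRCm38.p6, inside the annotated gene (chr14:58070547-58112720). The 251 bases printed (chr14:58072436-58072686) end with GGTCA, in capitals, the core letters of an estrogen response element. Printing ran up to the first exonic base, or to the end of marked letters that crossed it. The window of Kitl (gene at chr10:100015630-100100416, plus strand) holds 59 bases ahead of its first exon (chr10:100015571-100015629).
Fgf9: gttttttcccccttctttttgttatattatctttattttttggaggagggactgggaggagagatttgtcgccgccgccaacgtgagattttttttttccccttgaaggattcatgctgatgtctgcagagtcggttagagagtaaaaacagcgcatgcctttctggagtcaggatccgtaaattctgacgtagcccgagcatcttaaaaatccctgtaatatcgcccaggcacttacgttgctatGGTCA
Kitl: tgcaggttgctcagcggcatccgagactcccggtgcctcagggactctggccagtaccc
Letters were searched on both strands over the whole windows of 300 bases. GGTCA occurred 1 time in the Fgf9 window and 0 times in that of Kitl, and it is present in 40.5% of 32851 RefSeq windows of this length. The full element, GGTCA followed after any 3 bases by TGACC, contains the core letters, was in neither window and is in 0.0700% of all. GGGCGG, the letters of an Sp1 box, occurred 3 times in the Kitl window, outside the printed part, and 0 times in that of Fgf9 (35.7% of the windows). Such matches describe letters and are not binding sites.

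Fgf9 encodes a fibroblast growth factor. Its level in responsive cells of control libraries was 14.3 CPM at the lowest, 46.2 at the median and 92.5 at the highest, and in E2 libraries it was 71.6, 144 and 411 CPM. All 9 E2 libraries lay above the control median and 6 lay above every control library. The mean was 47.8 ± 21.5 CPM (SD, n = 10) in control and 167 ± 105 CPM (SD, n = 9) in E2, a log2 fold change of 1.79 (SE 0.31, adjusted p = 0.000980, edgeR). The highest E2 library was library 15, without which the E2 mean was 136 ± 55.7 CPM (SD, n = 8). Fgf9 was called without any 1 of the 19 libraries, at log2 fold changes of 1.51 to 1.96.

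Kitl encodes KIT ligand, also called stem cell factor. Control libraries ranged from 25.9 CPM over a median of 77.2 to 136 CPM in responsive cells, and E2 libraries from 110 CPM over 145 to 495 CPM. The lowest E2 library lay above 8 of 10 control libraries, and 5 of 9 E2 libraries lay above them all. Means of 80.5 ± 31.6 CPM (SD, n = 10) and 182 ± 121 CPM (SD, n = 9) gave a log2 fold change of 1.16 (SE 0.28, adjusted p = 0.0297, edgeR). Library 15 was again the highest, and without it the E2 mean was 142 ± 28.8 CPM (SD, n = 8), the log2 fold change 0.82 and the adjusted p 0.0633. The call was also lost without control library 1, 4, 6, 7 or 9 or E2 library 18, at log2 fold changes of 1.10 to 1.17 and adjusted p-values of 0.0509 to 0.0583.

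E2 library 15 held 24 responsive cells, of which 17 had a read of Fgf9, 19 of Kitl and 9 of Wnt5a. The cell with the most reads held 16.6% of its Fgf9 reads, 15.5% of its Kitl reads and 36.7% of its Wnt5a reads, and these were 3 different cells. The 3 cells with the most reads held 45.7, 44.9 and 80.4% of them. Its 3402610 reads lay within the range of the other E2 sums. Its Col3a1, a fibrillar collagen gene among the fibroblast markers, stood at 1956 CPM, against 459.9 to 718 CPM in the other 8 E2 libraries, while its Col1a2 was at 6.15 CPM.

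**Figure D1:**
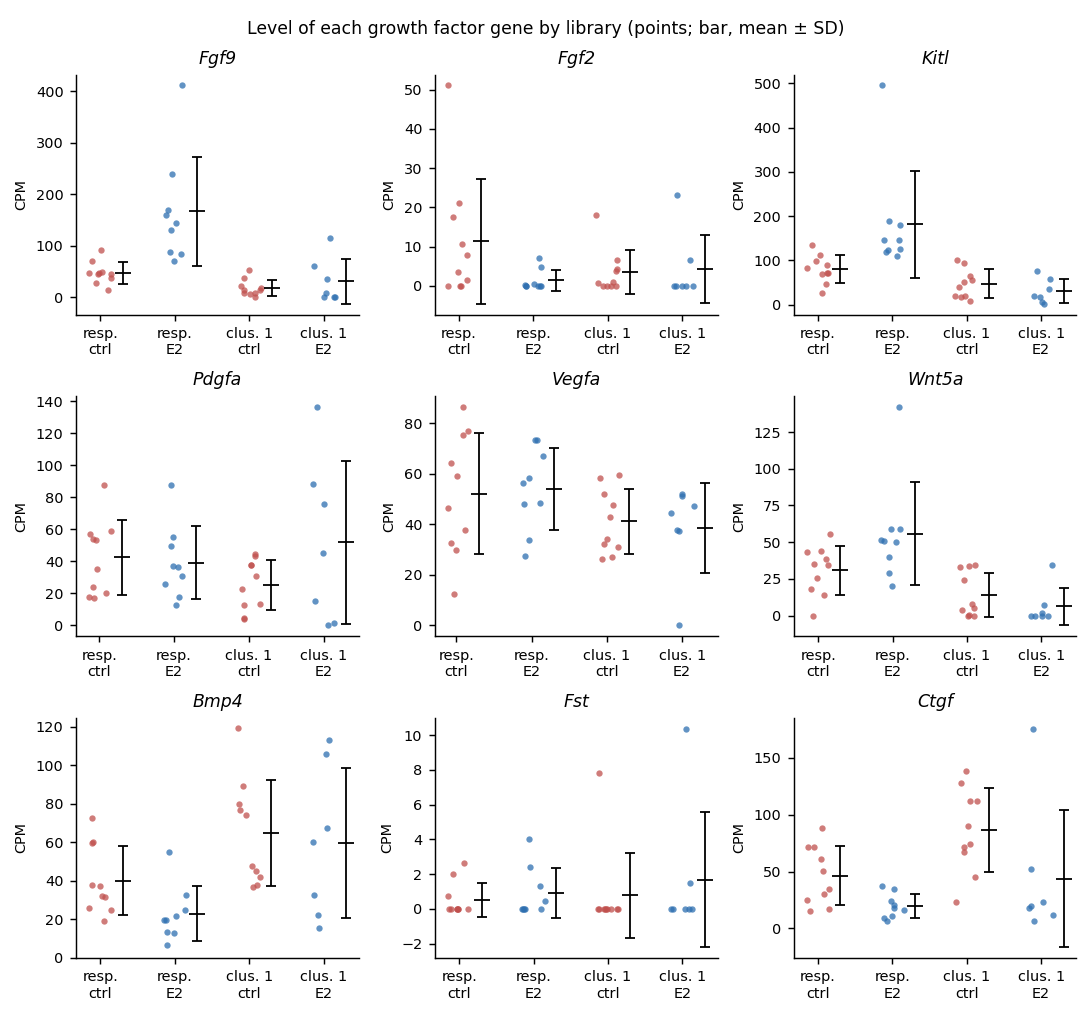
Level of each gene in CPM (vertical axis, from the summed counts of 1 library) for responsive (resp.) and cluster 1 (clus. 1) cells of control (ctrl, red) and E2-treated (blue) libraries, with the mean ± SD in black. In responsive cells 6 of 9 E2 libraries lie above every control library for Fgf9 and 5 of 9 for Kitl, and library 15 is the point at 411 and at 495 CPM.

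Fgf2 encodes the other fibroblast growth factor of the list (chr3:37348346-37410108). It was sparse, with 319 reads in all control and 43 in all E2-treated responsive cells. The control libraries spanned 0 to 51.1 CPM with a median of 5.67, and the E2 libraries 0 to 7.13 CPM with a median of 0. No read was found in 3 of 10 control and 5 of 9 E2 libraries, and 5 control libraries lay above every E2 library. The gene did not pass the filter on low counts, and without that filter its log2 fold change was -2.93 (adjusted p = 0.392, edgeR).

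Pdgfa (chr5:138976014-138997370) encodes a chain of platelet-derived growth factor, a signal to mesenchymal cells. Responsive cells had 17.02, 44.3 and 87.7 CPM at the lowest, median and highest control library and 12.9, 36.4 and 87.4 CPM in E2 libraries, so that the groups overlapped almost throughout. The log2 fold change was -0.12 (SE 0.37, adjusted p = 0.966, edgeR).

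Vegfa (chr17:46016993-46032369) showed the same overlap. Its control libraries had 12.5, 52.9 and 86.5 CPM and its E2 libraries 27.6, 56.2 and 73.5 CPM at the lowest, median and highest. The means were 52.2 ± 24.1 (SD, n = 10) and 54.0 ± 16.3 CPM (SD, n = 9), with a log2 fold change of 0.04 (SE 0.30, adjusted p = 0.987, edgeR), whose sign changed under other settings.

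Wnt5a (chr14:28504750-28527448) encodes a ligand that acts mostly without beta-catenin. It had 0, 34.7 and 55.5 CPM at the lowest, median and highest control library and 20.3, 50.7 and 142 CPM in E2 libraries. Of 9 E2 libraries, 7 lay above the control median and 3 above every control library, the highest being library 15. The log2 fold change of 0.85 (SE 0.46) did not pass (adjusted p = 0.592, edgeR), and without library 15 it was 0.54.

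Bmp4 (chr14:46383520-46390669, minus strand), a ligand of the BMP receptors, lay lower in most E2 libraries, without passing the test. Its levels were 18.97, 34.7 and 72.5 CPM at the lowest, median and highest control library and 6.47, 19.7 and 55.2 CPM in E2 libraries. Only 1 of 9 E2 libraries exceeded the control median. The log2 fold change was -0.82 (SE 0.36, adjusted p = 0.456, edgeR).

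Fst (chr13:114452290-114458951) encodes follistatin. It was near the limit of detection, with 16 reads in 203 control and 20 reads in 218 E2-treated responsive cells. It was at 0 in 7 of 10 control and 5 of 9 E2 libraries and reached 2.62 and 4.05 CPM at the most. No difference was detectable at this depth.

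Ctgf (chr10:24595442-24598683) had 15.1, 42.6 and 88.2 CPM at the lowest, median and highest control library and 6.78, 17.9 and 37.4 CPM in E2 libraries. No E2 library exceeded the control median, and 5 of 10 control libraries lay above every E2 library. Means of 46.5 ± 25.6 (SD, n = 10) and 19.7 ± 10.8 CPM (SD, n = 9) gave a log2 fold change of -1.25 (SE 0.39), which missed the threshold with edgeR (adjusted p = 0.142) and passed it with DESeq2 (adjusted p = 0.0476).

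In cluster 1, none of the 6 growth factor genes that could be fitted was called with E2, by edgeR, DESeq2 or limma-voom. None had an unadjusted p below 0.05 with edgeR or DESeq2, and Ctgf had 1 with limma-voom. The background was low too, since edgeR called 7 of 8340 genes (0.0839%), 3 higher (0.036%) and 4 lower (0.048%), 622 had an unadjusted p below 0.05, and DESeq2 called 52. The E2 sums of cluster 1 came from few cells, at most 9 in a library.

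Fgf9 in cluster 1 had 1.71, 14.6 and 52.7 CPM at the lowest, median and highest control library and 0, 8.42 and 116 CPM in E2 libraries, with 3 of 7 E2 libraries at 0 and 2 above every control library. Its log2 fold change was 0.82 with an SE of 0.95 (adjusted p = 0.944, edgeR). Kitl had 7.20, 46.0 and 101 CPM in control and 2.16, 20.0 and 76.2 CPM in E2 libraries, with a log2 fold change of -0.61 (SE 0.69, adjusted p = 0.937, edgeR). For both genes the groups overlapped.

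Pdgfa was at 3.72, 26.6 and 44.8 CPM in control and at 0, 45.4 and 136 CPM in E2 libraries of cluster 1, where 4 of 7 E2 libraries lay above every control library and 2 below, and its log2 fold change of 1.10 had an SE of 0.77 (adjusted p = 0.822, edgeR). Ctgf was at 23.4, 82.3 and 139 CPM in control and 6.56, 19.5 and 176 CPM in E2 libraries. For Ctgf, 5 of 7 E2 libraries lay below every control library and 1, library 18, above them all (log2 fold change -0.94, SE 0.59, adjusted p = 0.803, edgeR). With limma-voom its log2 fold change was -1.58 (SE 0.68, unadjusted p = 0.0282, adjusted p = 0.519). Bmp4 and Vegfa had log2 fold changes of -0.06 (SE 0.48) and -0.03 (SE 0.57).

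**Figure D2:**
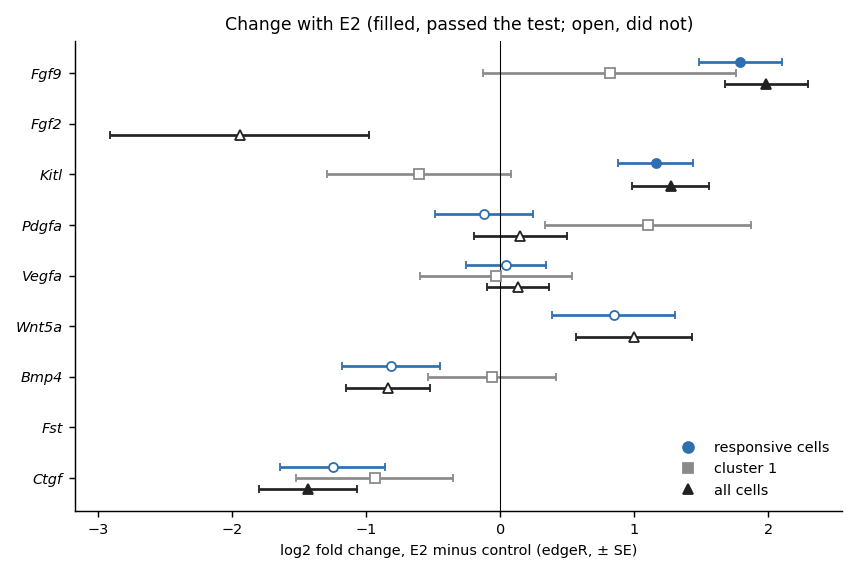
Log2 fold change of E2 against control with its SE (horizontal axis) for each gene in responsive cells (blue), cluster 1 (grey) and all cells (black), with filled symbols for genes that passed the test. Fgf9 and Kitl pass in responsive cells and in all cells, Ctgf passes in all cells, and no gene passes in cluster 1.

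Whether the response to E2 differed between the clusters was tested with an interaction term over 36 sums. The fit held no term for the library, so sums of both clusters from the same library were treated as independent. None of the 8 genes in that fit was called, while 21 of 11398 genes (0.184%) were, 2 of them (0.0175%) higher in cluster 1 and 19 (0.167%) lower, and 1244 had an unadjusted p below 0.05. With edgeR, Kitl alone of the 8 had an unadjusted p below 0.05, and neither DESeq2 nor limma-voom called any of them. Its change in cluster 1 minus that in responsive cells was -1.82 on the log2 scale (SE 0.65, unadjusted p = 0.00771, adjusted p = 0.236, edgeR). For Fgf9 this difference was -1.01 (SE 0.84, adjusted p = 0.744, edgeR), and with limma-voom it was -2.37 (SE 1.05, unadjusted p = 0.0291, adjusted p = 0.447). The median over all genes was -0.19 with edgeR. A difference between the clusters in the response of these genes to E2 was therefore not shown.

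Irrespective of E2, the clusters had different levels of several growth factors. The cluster labels come from the expression of these very cells, so this is a description with no test. The log2 differences were fitted over all 36 sums with terms for condition and cluster, and none for the library. Their SEs therefore ignore that 17 libraries gave sums of both clusters. Across these 17 libraries, Fgf9 was lower in cluster 1 in 16, Kitl in 16 and Wnt5a in 14. The fitted log2 differences of these genes were -1.78 (SE 0.44), -1.52 (SE 0.37) and -1.91 (SE 0.64). Bmp4 was higher in cluster 1 in 14 libraries (1.00, SE 0.28) and Ctgf in 13 (1.01, SE 0.33). Pdgfa, Vegfa and Fgf2 differed by -0.23 (SE 0.41), -0.39 (SE 0.27) and -0.27 (SE 1.05), and the median over all 11398 genes was -0.06.

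The order of the 4 groups by mean level was thus not the same for each gene. Wnt5a stood at 55.8 ± 34.9 CPM (SD, n = 9) in E2-treated and 30.8 ± 16.4 CPM (SD, n = 10) in control responsive cells, and at 14.2 ± 15.1 CPM (SD, n = 10) in control and 6.26 ± 12.8 CPM (SD, n = 7) in E2-treated cluster 1 cells, and its E2-treated responsive mean was 45.0 ± 14.1 CPM (SD, n = 8) without library 15. The SDs of neighbours in this order overlapped, while the means of control responsive and control cluster 1 cells lay further apart than either SD. Bmp4 ran the other way, with 22.9 ± 14.3 CPM in E2-treated and 40.1 ± 17.8 CPM in control responsive cells, and 59.5 ± 39.1 CPM and 64.9 ± 27.3 CPM in cluster 1 with E2 and without. Ctgf was highest in control cluster 1 cells, at 86.3 ± 36.8 CPM (SD, n = 10), and lowest in E2-treated responsive cells.

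Over all cells of a library, 3 of the 8 fitted growth factor genes were called, Fgf9 and Kitl higher and Ctgf lower, against 124 (1.13%) and 53 (0.484%) of 10945 genes in these directions and 177 (1.62%) in either. These 8 genes too were chosen with earlier results known. Here the share of cluster 1 cells differs between the conditions, with 126 of 329 control and 42 of 260 E2-treated cells. Within sums over all cells, fewer cells of a type and less RNA per cell cannot be told apart. Cluster 1 had lower Fgf9 and Kitl and higher Ctgf (fitted log2 differences of -1.78, -1.52 and 1.01). In responsive cells alone, edgeR called Fgf9 and Kitl but not Ctgf. How far the share of cluster 1 contributes to the 3 calls was not tested. Fgf9 ranged over 12.1, 37.9 and 66.5 CPM in control and 59.7, 139 and 370 CPM in E2 libraries (log2 fold change 1.98, SE 0.31, adjusted p = 0.000285, edgeR). Kitl had 22.8, 67.9 and 107 CPM in control and 94.6, 122 and 449 CPM in E2 libraries (1.27, SE 0.29, adjusted p = 0.0186, edgeR). For each of these genes 7 of 9 E2 libraries lay above every control library, and the call held without any 1 of the 19 libraries.

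Ctgf over all cells had 17.7, 53.7 and 101 CPM in control and 6.89, 17.9 and 51.3 CPM in E2 libraries, 4 of which lay below every control library. Its log2 fold change of -1.43 (SE 0.37, adjusted p = 0.0410, edgeR) was close to the threshold. The call was lost with limma-voom (adjusted p = 0.0758), without the cell with the most Ctgf reads (adjusted p = 0.0530), and without control library 1, 2, 5, 7, 8, 9 or 10 or E2 library 12, 14, 16, 17 or 20, at adjusted p-values of 0.0523 to 0.0821 and log2 fold changes of -1.46 to -1.32. Bmp4 (-0.84, SE 0.31), Wnt5a (0.99, SE 0.43), Fgf2 (-1.94, SE 0.97), Pdgfa (0.15, SE 0.35) and Vegfa (0.13, SE 0.23) did not pass.

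Levels of a library can rest on few cells, so the share of cells with a read was compared as well, after thinning each cell to 20000 reads. Thinning was a single random draw, and the spread over draws was not measured. Shares per library were compared by exact two-sided permutation, with adjustment over all 11504 genes with a read in at least 10 responsive cells. Of these, 27 (0.235%) were called higher with E2, 46 (0.4%) lower and 73 (0.635%) in either direction. Of the 8 growth factor genes so tested, Kitl passed. Whether Kitl and Fgf9 passed changed with the number of reads required, as given below.

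Kitl was found in 20.0 to 50% of responsive cells of control libraries (median 34.0%) and in 45.5 to 60.0% of E2 libraries (median 54.2%). The means were 33.9% ± 9.73 (SD, n = 10) and 53.7% ± 5.76 (SD, n = 9), 19.8 percentage points apart (exact permutation p = 0.000108, adjusted p = 0.0249). Without library 15 the difference was 19.2 points (exact permutation p = 0.000229, adjusted p = 0.0446). Counted at 2 reads or more, it missed the threshold (adjusted p = 0.0543).

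Fgf9 was found in 11.1 to 50% of cells in control (median 27.9%) and in 40.9 to 66.7% in E2 libraries (median 50%). The difference of 20.0 points had an exact permutation p of 0.000736 and an adjusted p of 0.0736. Without library 15 the difference was 20.7 points (exact permutation p = 0.00110, adjusted p = 0.110). Unthinned, with library 15, the adjusted p was 0.0516 (exact permutation). At 2 reads or more, every E2 library lay above every control library (5.56 to 30.0% against 32.0 to 50%), with an exact permutation p of 2.17e-05, the smallest that 10 against 9 libraries allow (adjusted p = 0.0121). At 2 reads, 0.657% of 10040 genes were called, 0.179% higher and 0.478% lower with E2.

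Bmp4 was found in 20.8 to 53.3% of responsive cells in control (median 32.5%) and in 8% to 31.0% in E2 libraries (median 20.8%), 15.8 points fewer on average (exact permutation p = 0.00145, adjusted p = 0.101). Unthinned, its shares were 53.8% ± 9.24 (SD, n = 10) and 35.9% ± 6.56 (SD, n = 9) and passed (exact permutation, adjusted p = 0.0265), though control cells were deeper and 1.24% of 13473 genes were called, 0.26% higher and 0.98% lower. Ctgf was found in 9.52 to 33.3% and in 8.33 to 13.6% of cells, 11.5 points fewer with E2 (exact permutation p = 0.00201, adjusted p = 0.114). The shares of Fgf2 averaged 6.05% and 0.833% (exact permutation p = 0.0113, adjusted p = 0.236). The adjusted p by exact permutation was 0.607 for Wnt5a, 0.907 for Vegfa and 0.925 for Pdgfa. After thinning, the ranges of control and E2 libraries overlapped at 1 read for every gene tested. Unthinned, the means in control and E2 were 49.1 and 63.6% for Kitl, 45.0 and 67.3% for Fgf9 and 37.8 and 21.2% for Ctgf.

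In cluster 1, 0 of 9389 genes (0%) were called by their shares (773 had an unadjusted exact permutation p below 0.05), and none of the growth factors had an unadjusted p below 0.05 at 1 read. Kitl was found in 22.1% ± 12.2 (SD, n = 10) of control and 19% ± 11.0 (SD, n = 7) of E2-treated cells, Fgf9 in 16.6% and 12.7%, and Ctgf in 39.2% and 25.9%. At 2 reads or more, Ctgf was found in 34.3% ± 14.2 (SD, n = 10) and 13.4% ± 15.8 (SD, n = 7), 20.8 points fewer with E2 (exact permutation p = 0.0124, adjusted p = 0.404), where 0 of 7866 genes were called and 645 had an unadjusted p below 0.05.

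**Figure D3:**
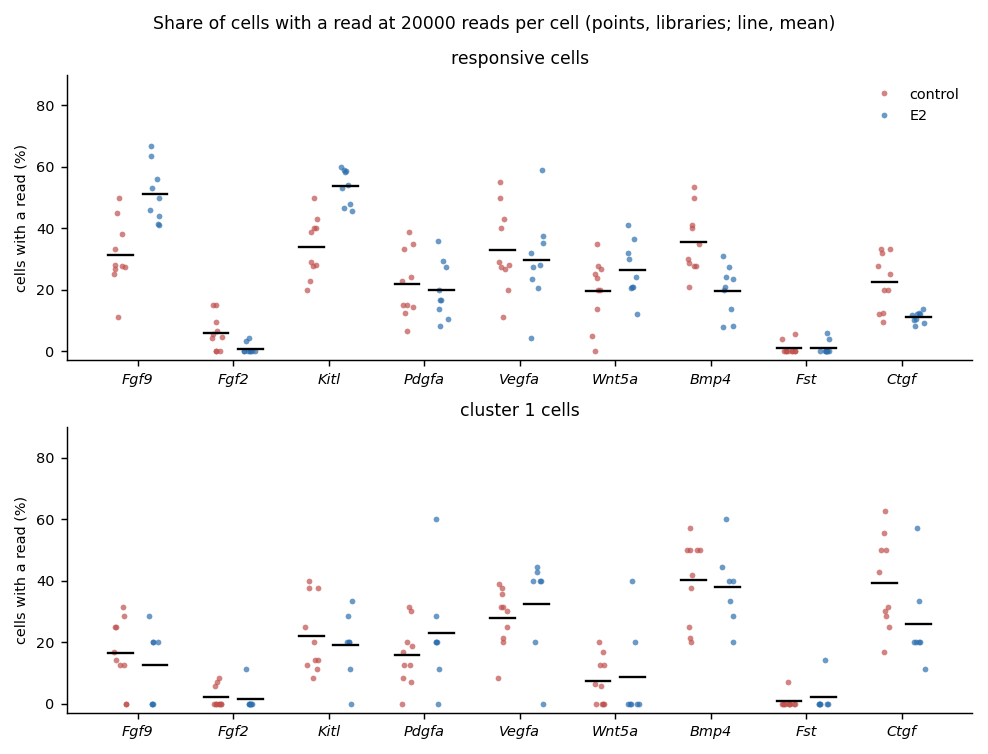
Share of cells with a read, in percent, after thinning to 20000 reads per cell, by library (points) with the mean (line), in responsive cells (top) and cluster 1 (bottom) of control (red) and E2 (blue) libraries. In responsive cells the mean share is 33.9% and 53.7% for Kitl and 31.2% and 51.3% for Fgf9, and 35.4% and 19.6% for Bmp4.

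Few cells showed many of these genes at once. The median cell had a read of 2 of the 9 genes at 20000 reads in all 4 groups, 9.36% of control and 8.72% of E2-treated responsive cells had none, and 32.0% and 36.2% had 3 or more. Fgf9 and Kitl were both found in 21 of 203 control responsive cells, where independent detection within the pooled cells would give 21.8, and in 67 of 218 E2-treated ones, where it would give 59.6. Pairs of detection counts across cells of 1 suspension are given as a description.

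Within cells with a read, the median number of reads of Fgf9 before thinning was 9 in control and 16.9 in E2-treated responsive cells, and that of Kitl was 13 and 24. Cells with Ctgf had a median of 9 reads in control and 3 in E2, and cells with Bmp4 7.50 and 5, also before thinning. Control cells were deeper. After thinning, the medians in control and E2 were 2 and 4 for Fgf9 and 4 and 4 for Kitl. They were 2 and 2.5 for Ctgf and 2 and 1 for Bmp4. Among thinned cells with 2 reads or more, they were 3 and 5 for Fgf9. There they were equal for Kitl (5), Ctgf (4) and Bmp4 (3). The direction seen before thinning thus held in both counts for Fgf9 alone.

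The deposited trajectory places the cells in states, which rest on the expression of the same cells and are used as a description of pooled CPM. Most control cells lay in state 1 (148 cells) and state 2 (143), and most E2-treated cells in state 5 (151), state 4 (43) and state 1 (41). Fgf9 was at 37.9 CPM in control cells of state 2, 172 CPM in E2-treated cells of state 4 and 175 CPM in those of state 5. Kitl was at 83.3, 230 and 165 CPM in the same cells. In state 1, Fgf9 was at 28.7 CPM in control and 44.6 CPM in E2-treated cells, and Kitl at 44.3 and 40.5 CPM.

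State 4 held cells of both conditions, 21 control and 43 E2-treated, from 9 libraries each. There, Fgf9 was at 74.6 and 172 CPM and Kitl at 92.4 and 230 CPM in control and E2, in the direction seen among all responsive cells. Ctgf stood at 36.3 and 3.69 CPM, Vegfa at 54.0 and 21.1 CPM, and Pdgfa at 12.3 and 12.2 CPM. Wnt5a was at 48.2 and 75.7 CPM, while the share of cells with a read of it, thinned, went the other way, from 38.1% in control to 20.9% in E2.

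**Figure D4:**
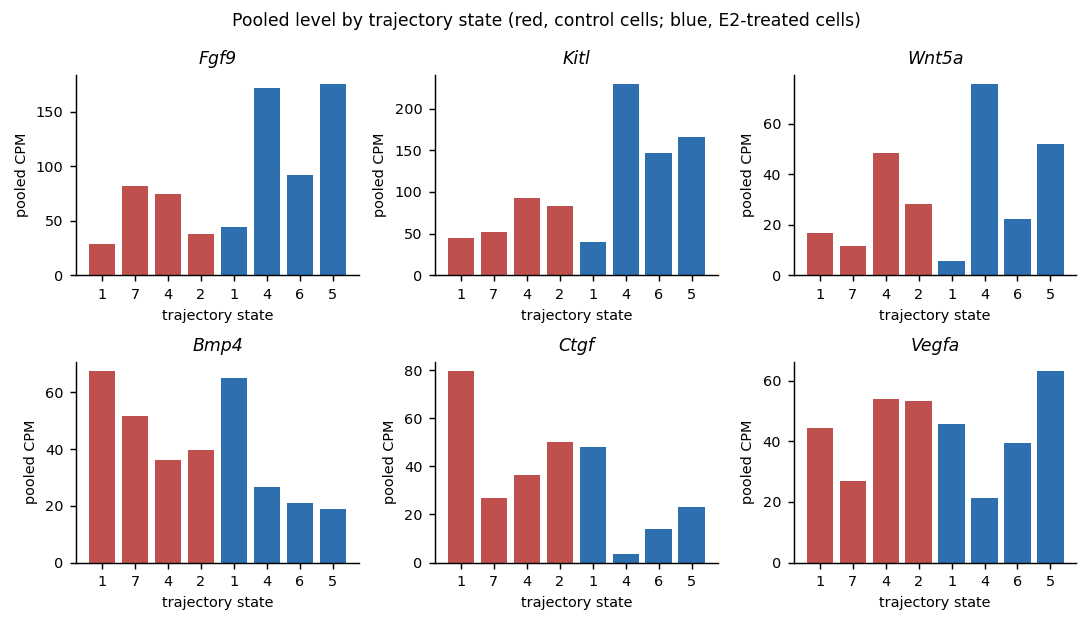
Pooled CPM (vertical axis) of 6 growth factor genes in trajectory states with at least 10 cells, in control (red) and E2-treated (blue) cells, with no replicates. Fgf9 is highest in E2-treated cells of states 4 and 5 (172 and 175 CPM) and Bmp4 in cells of state 1 (67.4 CPM in control, 65.1 CPM in E2).

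The receptors, modulators, further ligands and response genes of these pathways were counted in the same fits. In responsive cells 0 of 27 fitted receptor genes were called by edgeR, 2 of 14 antagonists and modulators rose, 1 of 17 other ligands rose, and of 16 response genes 1 rose and 1 fell, beside 141 of all 10265 genes (1.37%). Unadjusted p-values below 0.05 were found for 4, 2, 4 and 5 genes of these lists, beside 1015 of all genes. The median log2 fold changes of the lists were -0.08, 0.03, -0.11 and -0.19, beside 0.02 over all 10265 genes.

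The called antagonists were Twsg1 (log2 fold change 0.99, SE 0.25, adjusted p = 0.0362), a modulator of BMP signalling, and Sfrp1 (0.67, SE 0.17, adjusted p = 0.0461), a secreted Wnt antagonist. Twsg1 rose from 52.2 ± 20.9 (SD, n = 10) to 104 ± 33.4 CPM (SD, n = 9), and Sfrp1 from 272 ± 94.0 to 434 ± 66.7 CPM. Angptl4, a secreted regulator of lipoprotein lipase, rose from 13.4 ± 12.7 to 62.0 ± 26.2 CPM (2.20, SE 0.52, adjusted p = 0.0248, edgeR). Among response genes, Fos, an immediate early gene, rose from 1045 ± 228 to 1702 ± 451 CPM (0.69, SE 0.15, adjusted p = 0.00870), and Ndrg1, a gene induced by hypoxia, fell from 949 ± 185 to 534 ± 92.3 CPM (-0.84, SE 0.13, adjusted p = 0.000440).

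Over all cells, Sfrp1, Angptl4, Fos and Ndrg1 were called in the same directions, Twsg1 was not (0.71, SE 0.23, adjusted p = 0.160, edgeR), and of 28 receptors Nrp2, a co-receptor of VEGF and semaphorins, was called lower (-0.95, SE 0.23, adjusted p = 0.0271, edgeR). In responsive cells Nrp2 stood at 132 ± 39.6 CPM (SD, n = 10) in control and 70.6 ± 33.0 CPM (SD, n = 9) in E2 (adjusted p = 0.0525, edgeR). None of the listed genes was called by edgeR within cluster 1 or in the interaction. In cluster 1, 8 of 67 had an unadjusted p below 0.05, beside 622 of all 8340 genes, of which 7 (0.0839%) were called. In the interaction, 11 of 84 did, beside 1244 of 11398 genes, of which 21 (0.184%) were called.

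The genes whose log2 CPM followed a growth factor most closely over the 36 sums were Prkg2 for Fgf9 (Pearson r = 0.83, and 0.67 over the 19 responsive sums), Prss35 for Kitl (0.79 and 0.62) and Cacnb3 for Vegfa (0.88 and 0.57). Next came Cyb5b for Fgf9 (0.82 and 0.37), Filip1l for Kitl (0.79 and 0.38) and Trir for Vegfa (0.87 and 0.69). For Bmp4 they were Marveld1 (0.70 and 0.67) and Tmsb10 (0.69 and 0.55), for Wnt5a Sp110 (0.73 and 0.47) and Fdft1 (0.73 and 0.36), and for Ctgf Tpm3 (0.66 and 0.43) and Ano1 (0.63 and 0.19). The values of Fxr2 and Anxa4, which followed Pdgfa at 0.72 over all sums, were -0.02 and -0.08 among responsive sums alone. For Fgf2 they were Coq5 and Dcaf5 (both 0.53). These sums share libraries, clusters and depth, and the genes were picked as the closest of 11398.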

How the data were processed

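Per the submitters' notes and methods, reads were demultiplexed to single cells, transcripts were quantified by kallisto 0.44.0 on GRCm38 and summarised by tximport. After filters on cells and genes, the authors deposited each estimated count without normalization, and 90.1% of these values were whole numbers. Per the file headers, the deposited metadata hold SC3 cluster labels, trajectory states, total counts and the percent of mitochondrial reads per cell. The deposited imputed values were not used.

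Counts were summed per library (chip column) and cluster, for sums of at least 3 cells, which left out 3 of 42 E2-treated cluster 1 cells, and rounded. Genes kept by filterByExpr were fitted in edgeR 4.0.16 (R 4.3.3) with TMM scaling and a quasi-likelihood test, and adjustment over all genes followed Benjamini and Hochberg. Each SE is the size of the log2 fold change over the root of its F. Scripts were tested on simulated data. The counts are estimated reads, and no collapsing by molecular identifiers is described, so shares can carry amplification noise.

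Shares of cells with a read were compared by exact permutation of libraries (Python 3.11.15, scipy 1.17.1) after thinning to 20000 reads. The plan had been to adjust these p-values over the growth factor tests alone. This was replaced by adjustment over all genes with a read in at least 10 cells, and the change and the minimum of 10 cells were made after the first values had been seen. Fewer growth factor genes passed after the change than before.

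Alternatives were DESeq2 1.42.0, limma-voom (limma 3.58.1), RLE scaling, no gene filter, thinning, removal of the top cell of a gene, at least 5 cells per sum, each library left out, the library as a block, shares unthinned or at 2 reads, and CPM of the raw total. Values without library 15 for shares and levels were added after seeing the data. All 10 growth factor genes are named wherever fitted. Genes of the pathway lists are named where called in responsive or all cells, and the 2 genes closest to each growth factor by Pearson correlation of log2 CPM (prior count 2) are named. The growth factor genes and the lists were chosen with earlier results of these data known. Promoter windows are from RefSeq (GRCm38.p6), with entries for 7 of the 10 genes, and gene positions from GENCODE M21.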

Additional observations from a re-analysis of the deposited data

Results flagged for a closer look

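Library 15, of E2-treated cells, was far above the other E2 libraries in responsive cells for 3 genes. It stood at 411 CPM for Fgf9 (next highest library 240.0), at 495 CPM for Kitl (next 188) and at 142 CPM for Wnt5a (next 59.2), over 24 cells. Library 1 of control responsive cells held 51.1 CPM of Fgf2 (next 21.2).

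In cluster 1, where sums rest on fewer cells, a single library also stood apart in several groups. Among control libraries these were Fgf2 at 17.99 CPM in library 7 (18 cells) and Fst at 7.799 CPM in library 8 (14 cells, all other libraries at 0). Among E2 libraries they were Ctgf at 176 CPM in library 18 (7 cells, next 51.9), Fgf2 at 23.2 CPM in library 11 (9 cells), Wnt5a at 34.6 CPM in library 16 (5 cells), and, in library 15 with its 3 cells, Fst at 10.4 CPM from 2 reads and Vegfa at 0 CPM. In all, 11 of 36 groups held such a library. The rule marks about 1 in 20 groups by chance for values with a normal spread, a rate that does not apply to groups with many libraries at 0, such as those of Fst and Fgf2.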

How the results depend on the processing

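Fgf9 and Kitl kept their calls in responsive cells under 6 other settings of tool, scaling, filter, depth and top cell, at log2 fold changes of 1.53 to 1.81 and 1.09 to 1.18. Leaving out 1 library gave 1 to 2 called growth factor genes in responsive cells and 2 to 3 over all cells. A minimum of 5 cells per sum removed no responsive sum. No fitted growth factor gene was called in cluster 1 or in the interaction under the settings run there, which left out no single library, and after thinning Bmp4 and Ctgf alone could be fitted in cluster 1. The number passing by shares of cells went from 1 to 2 when cells were not thinned. Calls over all genes moved more: DESeq2 called 234 in place of 141 in responsive cells, 52 in place of 7 in cluster 1, 98 in place of 21 in the interaction and 318 in place of 177 over all cells. Without a gene filter cluster 1 gave 1, and the interaction gave 13 with limma-voom, 12 after thinning and 0 with the library as a block.

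Signs changed for values that were not called, and the cause was not tested. In responsive cells, Vegfa was at -0.26 after thinning and -0.0896 without its top cell, and with 1 library left out it ranged from -0.0720 to 0.15 and Pdgfa from -0.36 to 0.0591. In cluster 1, Fgf9 was at -0.52 with limma-voom, Vegfa at 0.0766 with DESeq2, 0.0466 with RLE, 0.0362 without the top cell and 0.17 at 5 cells per sum, and Bmp4 at 0.0480, 0.0387, 0.0248 and 0.0889 under the same 4 settings. In the interaction, Vegfa was at 0.0463, 0.0104, 0.0153 and 0.11 under these and 0.27 after thinning, and Ctgf at -0.39 with limma-voom and, with libraries blocked, at -0.76. Over all cells, thinning gave -0.0708 for Pdgfa and -0.0768 for Vegfa, Vegfa was at -0.00099 without its top cell, and Pdgfa ranged from -0.12 to 0.29 with 1 library left out. Of shares, in percentage points, at 2 reads Fst moved to -0.51 in responsive cells, and in cluster 1 Fgf9 moved to 1.06, Fgf2 to 0.32, Wnt5a to -0.0079 and Fst to -0.71. Unthinned, cluster 1 gave 1.60 for Kitl, -0.16 for Pdgfa, -1.90 for Vegfa and -4.65 for Wnt5a.

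No source pairs a control library with an E2 library, so the 2 conditions were compared without pairing. The clusters of a library are paired, and the interaction was also fitted with the library as a block. All libraries of a condition come from 1 suspension, E2-treated cells were shallower, and cluster 1 had 7 E2 sums of 3 to 9 cells, so changes of moderate size in cluster 1 were not detectable at this depth.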
